A study of Homo sapiens with 12 samples.

Results

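The dual-specificity MAP kinase phosphatases were followed in MiaPaca2 cells, an established human cell line from a pancreatic ductal adenocarcinoma (PDAC), after epigenetic priming and treatment with a Vitamin D analogue. The genes were a list of 10 symbols (DUSP1, DUSP2, DUSP4, DUSP5, DUSP6, DUSP7, DUSP8, DUSP10, DUSP14 and DUSP16), matched through GENCODE v44 to the Ensembl identifiers of the count tables. Of these 10, 9 had an identifier among the 63677 listed, 8 passed the filter on low counts, and DUSP14 was not analysed here. The list was chosen by its relation to a value known from these data, the level of DUSP10 in GTA+5-Aza against Con, so that comparison is described below and supports nothing. The RNA-seq comprised 12 libraries, 3 in each of 4 groups, all of unmodified (WT) MiaPaca2 cells treated for 24 h. Con received the vehicle DMSO. CPT received the Vitamin D analogue calcipotriol at 1 µM. GTA+5-Aza received GTA, which supplies acetate for histone acetylation, at 2 mM and 5-Aza, an inhibitor of DNA methylation, at 1 µM, and CPT+GTA+5-Aza received all 3 agents at these doses. The groups with GTA and 5-Aza are called primed and the others unprimed. Since both priming agents were always given together, their effects cannot be told apart. All libraries came from 1 cell line. The study's methods describe the samples of an experiment as independent in general, and neither they nor the labels say for the RNA-seq whether replicates were separate cultures, so p-values measure the spread between these libraries, which may be technical.

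MAP kinases relay signals from growth factors and stress through cascades of kinases, and the last kinase of each cascade (ERK, JNK or p38) is active only while a threonine and a tyrosine in its activation loop carry phosphate. The dual-specificity MAP kinase phosphatases remove both phosphates and so end the signal. DUSP1, DUSP2, DUSP4 and DUSP5 act in the nucleus and are typically induced by the signal they end, DUSP6 and DUSP7 act in the cytoplasm and prefer ERK, and DUSP8, DUSP10 and DUSP16 prefer JNK and p38.

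The sequence before the start of 5 transcripts is shown because the priming agents act on chromatin and DNA methylation, and CpG dinucleotides, the sites of that methylation, are in capitals. Each run is the 250 bases before a RefSeq start on GRCh38.p14, printed 5′ to 3′ on the strand of the gene, which is the minus strand for all 5. DUSP10 has 2 starts in the table, and DUSP8, DUSP2 and DUSP1 are given beside it as a rarely transcribed and as more abundant genes.
DUSP10 start 1, chr1:221742090-221742339: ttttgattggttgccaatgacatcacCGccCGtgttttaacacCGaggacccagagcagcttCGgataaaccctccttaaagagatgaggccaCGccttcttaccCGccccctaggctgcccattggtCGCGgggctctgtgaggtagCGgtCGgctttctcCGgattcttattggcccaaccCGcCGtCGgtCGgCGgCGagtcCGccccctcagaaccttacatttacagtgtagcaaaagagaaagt
DUSP10 start 2, chr1:221736901-221737150: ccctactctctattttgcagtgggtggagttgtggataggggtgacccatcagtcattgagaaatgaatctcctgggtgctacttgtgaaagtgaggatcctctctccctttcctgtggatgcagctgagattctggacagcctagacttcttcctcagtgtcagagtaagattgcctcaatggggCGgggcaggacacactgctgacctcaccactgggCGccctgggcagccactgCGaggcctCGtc
DUSP8, chr11:1572272-1572521: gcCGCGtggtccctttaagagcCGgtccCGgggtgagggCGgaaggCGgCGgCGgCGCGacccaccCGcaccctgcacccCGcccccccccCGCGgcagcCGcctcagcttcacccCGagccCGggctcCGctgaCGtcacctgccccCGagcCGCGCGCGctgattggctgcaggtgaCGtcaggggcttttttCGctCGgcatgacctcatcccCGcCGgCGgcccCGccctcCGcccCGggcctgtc
DUSP2, chr2:96145441-96145690: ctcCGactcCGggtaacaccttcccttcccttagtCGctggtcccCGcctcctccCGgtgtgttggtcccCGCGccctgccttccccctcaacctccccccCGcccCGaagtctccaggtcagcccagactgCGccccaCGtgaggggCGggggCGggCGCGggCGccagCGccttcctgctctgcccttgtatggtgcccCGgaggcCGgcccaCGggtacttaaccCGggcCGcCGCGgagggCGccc
DUSP1, chr5:172771196-172771445: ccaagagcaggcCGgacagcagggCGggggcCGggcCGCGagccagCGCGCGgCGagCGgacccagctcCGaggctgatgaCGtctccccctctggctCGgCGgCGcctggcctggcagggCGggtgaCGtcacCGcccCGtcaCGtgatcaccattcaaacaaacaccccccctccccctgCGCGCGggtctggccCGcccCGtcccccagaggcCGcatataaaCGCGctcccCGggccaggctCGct

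Start 1 of DUSP10 had 18 CpG sites in this window and start 2 had 4. The other windows held 33 for DUSP8, 25 for DUSP2, 30 for DUSP1, 16 for DUSP6, 36 for DUSP7 and 25 for DUSP16. Among 35116 RefSeq starts the median was 11 and the upper quartile 23, so DUSP10 start 1 lay above 63.2% of starts and DUSP7 above 95.1%. The cAMP response element TGACGTCA, searched on both strands, occurred 2 times before DUSP8, with first bases 118 and 74 bases before the start, and 1 time before DUSP1, 125 bases before the start. It was in 1.6% of all these windows. The GC box GGGCGG, found in 42.6% of windows, occurred 3 times before DUSP10 start 1 and 1 time before start 2. Neither TGANTCA (AP-1, 6.6% of windows) nor CCGGAA (ETS, 14.5%) occurred in the windows of DUSP10, DUSP8, DUSP2, DUSP1, DUSP6, DUSP7 and DUSP16. DUSP4 and DUSP5 had no window here. A match is a description of letters, and no methylation was measured in these libraries.

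**Figure D1:**
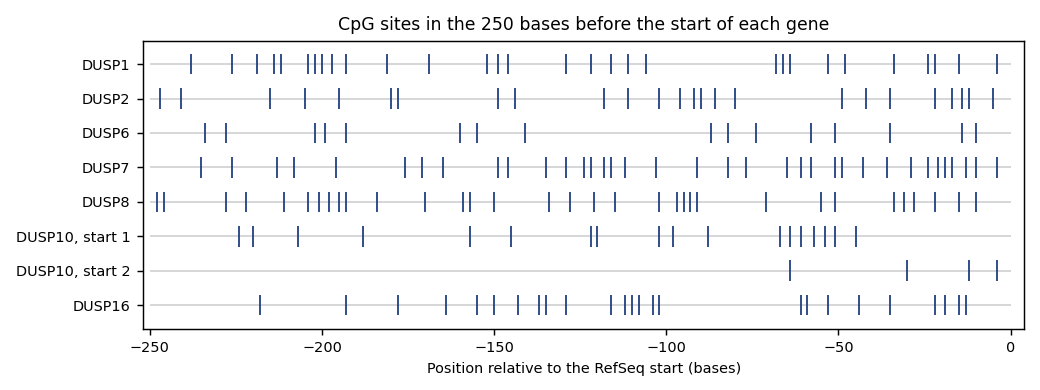
CpG sites (vertical lines) in the 250 bases before each RefSeq start, by position in bases relative to the start (x axis). DUSP10 start 2 holds 4 sites and DUSP7 holds 36.

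DUSP10, on chromosome 1 (ENSG00000143507, GRCh38 chr1:221701424-221742089), was close to absent in unprimed cells and present in every primed library. Its counts were 2, 0 and 0 in the Con replicates and 0 in each of the 3 CPT replicates. They were 22, 28 and 16 in GTA+5-Aza and 32, 38 and 44 in CPT+GTA+5-Aza. All 6 primed libraries lay above all 6 unprimed ones, and the 3 triple-treated libraries lay above the 3 given GTA+5-Aza. In CPM (counts divided by the library size, as scaled by edgeR's TMM method, and brought to a common scale) the level was 0.0351 ± 0.0607 in Con, 1.16 ± 0.250 in GTA+5-Aza and 2.18 ± 0.502 in CPT+GTA+5-Aza (SD, n = 3). A count of 0 allows up to 3 counts, or 0.148 to 0.165 CPM in the CPT libraries. Against that floor per library, DUSP10 was at least 13.2-fold higher in CPT+GTA+5-Aza than in CPT. edgeR's quasi-likelihood test in the fit of all 12 libraries, which holds the Con and GTA+5-Aza libraries behind the choice of the list, gave a Benjamini-Hochberg adjusted p of 7.88e-06, and a fit of the 6 libraries of this comparison alone gave 4.54e-05. In GTA+5-Aza against Con, where the gene was noticed, the summed counts were 66 against 2, a ratio of 35.4 with a 95% interval of 9.43 to 298.8 that covers counting error only. DUSP10 passed the filter on low counts only through the primed groups, so a gene with its counts had to differ, and these p-values describe its values and support nothing further.

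The counts of DUSP10 were also set beside those of all identifiers. Of 39237 identifiers with at most 2 counts in each of the 6 unprimed libraries, 6092 had any count in the primed ones, and 6 of these, DUSP10 included, had at least 16 counts in each of the 6 primed libraries. Both limits were set by the values of DUSP10 itself, so this number does not measure how common such a split is. The 4 genes whose log2 CPM followed DUSP10 most closely over the 12 libraries were SFRP1 (Pearson r = 0.984), a secreted Wnt antagonist, SLC20A1 (0.984), a phosphate transporter, UPP1 (0.983), a uridine phosphorylase, and FHOD1 (0.979), an actin regulator. In all, 405 genes had r above 0.9. The points share the split between primed and unprimed libraries, so these values describe that split. The mean level of SFRP1 was 1.02 CPM in Con and 9.85 CPM in GTA+5-Aza, whereas that of SLC20A1 was 279 and 343.7 CPM.

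**Figure D2:**
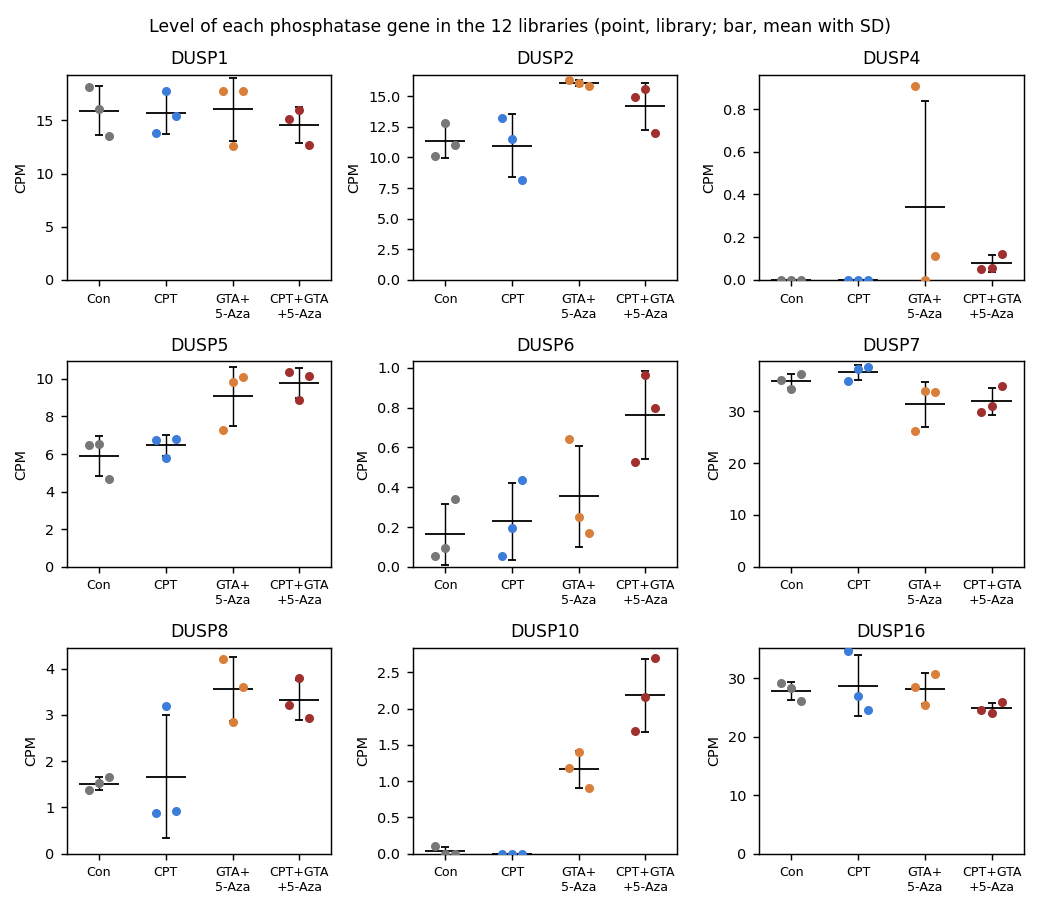
CPM (y axis) of the 9 phosphatase genes with an identifier in each library, by group (x axis); points are libraries, horizontal bars the mean and vertical bars the SD of 3. For DUSP10 the 6 primed libraries lie above the 6 unprimed ones, and for DUSP8 CPT replicate 2 lies at 3.20 CPM, away from the other 2 CPT replicates.

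DUSP8 (ENSG00000184545, chr11:1554051-1572271), also a phosphatase of JNK and p38, was higher in primed cells against Con, and its change in the presence of CPT turned on 1 library. Its calls against Con were kept in 7 of 13 alternative fits for GTA+5-Aza and in 6 of 13 for CPT+GTA+5-Aza. Its CPM was 1.37, 1.52 and 1.65 in Con, 4.22, 2.86 and 3.61 in GTA+5-Aza, and 3.22, 3.80 and 2.94 in CPT+GTA+5-Aza. The CPT replicates were at 0.880, 3.20 and 0.928 CPM, so replicate 2 lay among the primed libraries and the others lay below Con. In CPT+GTA+5-Aza against CPT the log2 fold change was 0.98 ± 0.37 (SE), which did not pass (edgeR, Benjamini-Hochberg adjusted p = 0.074), and without CPT replicate 2 it was 1.86 with an adjusted p of 0.000387. It also passed with no filter on low counts (adjusted p = 0.0488). The counts of CPT replicates 2 and 3 differed more than those of any other replicate pair over all genes (chi-square per degree of freedom 18.06, against a lowest value of 3.988), and the part of this in the DUSP8 values was not tested.

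DUSP16 (ENSG00000111266, chr12:12473282-12562863), the most abundant of the 3 phosphatases of JNK and p38, differed little between groups, and only the CPT+GTA+5-Aza libraries lay wholly below those of Con. It was at 27.9 ± 1.55 CPM in Con, 28.7 ± 5.20 in CPT, 28.2 ± 2.70 in GTA+5-Aza and 24.8 ± 0.932 in CPT+GTA+5-Aza (SD, n = 3). The log2 difference of CPT+GTA+5-Aza against CPT was -0.21, with a 95% interval of -0.45 to 0.04, and -0.06 without CPT replicate 1. Per length of exon, DUSP10 made up 0 to 0.847% of the summed level of DUSP8, DUSP10 and DUSP16 in unprimed libraries, 5.96 to 10.7% in GTA+5-Aza and 12.7 to 18.4% in CPT+GTA+5-Aza. The summed level itself was 4.22 ± 0.205 CPM per kilobase in Con, 4.36 ± 0.697 in CPT, 5.08 ± 0.394 in GTA+5-Aza and 4.92 ± 0.236 in CPT+GTA+5-Aza (SD, n = 3). DUSP16 thus stayed the larger part of this sum in all 12 libraries.

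Among the nuclear phosphatases, DUSP5 was higher in primed cells. DUSP5 (ENSG00000138166, chr10:110497907-110511533), which is specific for ERK, was at 6.47, 6.53 and 4.67 CPM in Con and 6.76, 5.80 and 6.82 CPM in CPT. It was at 7.27, 9.82 and 10.1 CPM in GTA+5-Aza and 10.3, 8.86 and 10.2 CPM in CPT+GTA+5-Aza. Every primed library lay above every unprimed one. In CPT+GTA+5-Aza against CPT the log2 fold change was 0.60 ± 0.18 (SE; edgeR, Benjamini-Hochberg adjusted p = 0.0225). The call was lost without CPT replicate 2 (adjusted p = 0.0598), without CPT+GTA+5-Aza replicate 1 (0.0822) and without replicate 3 (0.0713) by the same edgeR test and adjustment, at log2 fold changes of 0.52 to 0.57.

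DUSP2 (ENSG00000158050, chr2:96143169-96145440), an inducible phosphatase first known from lymphocytes, was at 10.1, 12.8 and 10.99 CPM in Con and 16.35, 16.03 and 15.86 CPM in GTA+5-Aza. It was at 13.2, 11.5 and 8.13 CPM in CPT and 14.9, 15.6 and 12 CPM in CPT+GTA+5-Aza. The groups did not overlap without CPT and overlapped with it. In the libraries with CPT the log2 fold change was 0.37 ± 0.16 (SE; edgeR, Benjamini-Hochberg adjusted p = 0.114) and 0.20 without CPT replicate 3. DUSP1 (ENSG00000120129, chr5:172768096-172771195), an immediate early gene that acts on all 3 classes of MAP kinase, was at 15.9 ± 2.29 CPM in Con, 15.7 ± 1.96 in CPT, 16.03 ± 2.95 in GTA+5-Aza and 14.6 ± 1.70 in CPT+GTA+5-Aza (SD, n = 3). Its 95% interval in CPT+GTA+5-Aza against CPT ran from -0.42 to 0.21 on the log2 scale. DUSP4 (ENSG00000120875), a nuclear phosphatase induced by ERK, had 0 counts in the 6 unprimed libraries, 17, 0 and 2 in GTA+5-Aza and 1, 1 and 2 in CPT+GTA+5-Aza. GTA+5-Aza replicate 1 carried 17 of the 19 counts of its group, and the gene failed the filter on low counts, so it has no test.

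Neither cytoplasmic phosphatase of ERK was called in the fit of all 12 libraries. DUSP7 (ENSG00000164086, chr3:52048919-52056571) was at 35.9, 38.2 and 38.5 CPM in CPT and 29.9, 31.1 and 34.8 CPM in CPT+GTA+5-Aza. Primed libraries lay below unprimed ones both with and without CPT. The log2 fold change with CPT was -0.24 ± 0.11 (SE; edgeR, Benjamini-Hochberg adjusted p = 0.132). DUSP6 (ENSG00000139318, chr12:89347235-89352501), a feedback inhibitor of ERK, had 1, 2 and 7 counts in Con, 1, 4 and 8 in CPT, 12, 5 and 3 in GTA+5-Aza, and 10, 17 and 13 in CPT+GTA+5-Aza. All triple-treated libraries lay above all CPT libraries, at a log2 fold change of 1.70 ± 0.79 (SE; edgeR, Benjamini-Hochberg adjusted p = 0.15). Against Con, where the triple-treated libraries did not overlap either, it was 2.17 ± 0.82 (SE; edgeR, Benjamini-Hochberg adjusted p = 0.0702), and a fit of these groups alone called it (adjusted p = 0.0243). DUSP6 passed the filter on low counts only through the primed groups. An antisense long noncoding RNA overlaps 28.6% of its exon bases, and the strand setting of the counting is not given in the sources used here, so its counts are uncertain.

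Over the 8 tested genes, the fit gave 2 higher (DUSP5 and DUSP10) and 0 lower in CPT+GTA+5-Aza against CPT, where 9.57% of 17123 genes passed the threshold upward and 7.39% downward (edgeR, Benjamini-Hochberg adjusted p under 0.05). DUSP10 and DUSP6 entered the tested set only through the primed groups, so the counts and medians over the 8 are descriptions, here and in the other comparisons, and of the other 6 genes 1 (DUSP5) was called. The median log2 fold change was 0.49 for the 8, also with DUSP10 at its lower bound, and 0.01 for all genes. In 4 of the 8, DUSP5, DUSP6, DUSP7 and DUSP10, the libraries of the groups did not overlap, against 30.8% of all genes. In GTA+5-Aza against Con, which the choice of the list used, DUSP2, DUSP5, DUSP8 and DUSP10 were called higher and 0 lower, beside 9.95% and 7.53% of all genes, and libraries did not overlap for 5 of the 8, beside 34.1% of all genes. In this comparison 1703 genes were higher and 1290 lower, and 2013 and 908 when libraries were scaled by total counts alone. In CPT+GTA+5-Aza against Con, which shares its Con libraries with that comparison, 3 genes were higher and 0 lower, beside 9.62% and 7.16% of all genes. These were DUSP5 (log2 fold change 0.73), DUSP8 (1.13) and DUSP10, with edgeR Benjamini-Hochberg adjusted p of 0.00564, 0.0388 and 2.47e-05. Without Con replicate 3 DUSP5 was not called (0.0522), and DUSP8 lost its call whichever of the 6 libraries was left out, with edgeR adjusted p from 0.0608 to 0.131.

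**Figure D3:**
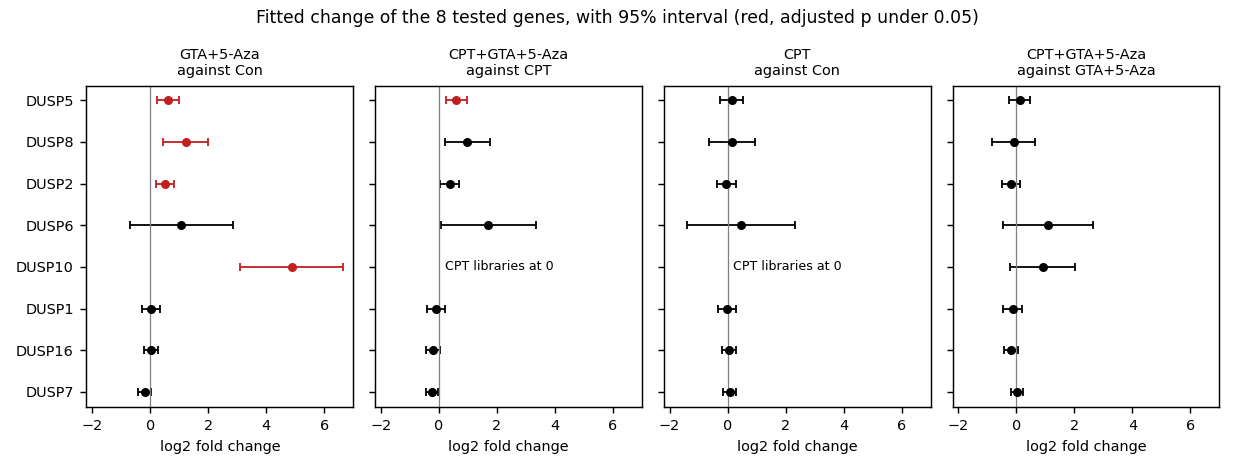
Fitted log2 fold change (x axis) of the 8 tested genes (y axis) in 4 comparisons, with 95% intervals; red marks an adjusted p under 0.05. DUSP10 is not drawn against CPT, where its counts are 0, and in both CPT comparisons on the right no gene is red.

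No phosphatase gene passed the test of the response to CPT. In CPT against Con, CPT+GTA+5-Aza against GTA+5-Aza and the interaction of CPT with priming, edgeR called 0 of the 8 genes, DESeq2 called 0, and 0 had an unadjusted P under 0.05. Over all genes edgeR called 0% in each of the 3, while DESeq2 called 3 higher and 1 lower in the first, 1 higher in the second and 0 in the third. By edgeR the share at an unadjusted P under 0.05 was 4.28%, 2.71% and 2.63%. In primed cells the libraries with and without CPT did not overlap for 2 of the 8 genes, DUSP2, which was lower with CPT, and DUSP10, which was higher, beside 9.15% of all genes. The summed counts of DUSP10 were 114 against 66. The ratio was 1.84, and its 95% interval of 1.35 to 2.53 covers counting error only. With the spread between libraries included, the log2 fold change was 0.90 ± 0.55 (SE), with a 95% interval of -0.22 to 2.03 and an unadjusted P of 0.111 in the edgeR fit. The intervals of CPT against Con were narrow for the abundant genes, from -0.15 to 0.28 for DUSP7 and from -0.20 to 0.29 for DUSP16 on the log2 scale, and wide for DUSP8, from -0.65 to 0.96, where the estimate went from 0.15 to -0.74 without CPT replicate 2.

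Levels were compared between genes as CPM per kilobase of exon. In Con the order of the means was DUSP1 (7.89), DUSP7 (6.32), DUSP2 (5.86), DUSP16 (3.91), DUSP5 (2.32), DUSP8 (0.306), DUSP6 (0.0422), DUSP10 (0.0124) and DUSP4 (0). DUSP7 overlapped with DUSP2 between libraries, as did DUSP6 with DUSP10 and DUSP10 with DUSP4. In CPT+GTA+5-Aza the order was DUSP2 (7.34), DUSP1 (7.24), DUSP7 (5.63), DUSP5 (3.86), DUSP16 (3.48), DUSP10 (0.771), DUSP8 (0.670), DUSP6 (0.198) and DUSP4 (0.0106). Here DUSP2 overlapped with DUSP1, DUSP5 with DUSP16, and DUSP10 with DUSP8. DUSP10 therefore moved from among the lowest genes to the level of DUSP8, which remained well below that of the 5 abundant genes.

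**Figure D4:**
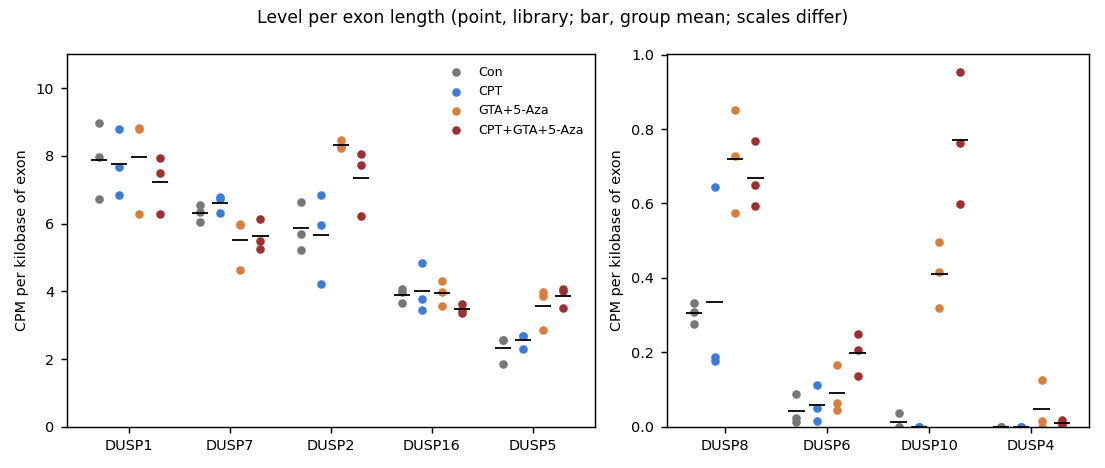
CPM per kilobase of exon (y axes, different scales) of the 5 abundant genes (left) and the 4 rare genes (right); points are libraries coloured by group and bars are group means. DUSP10 reaches a mean of 0.771 in CPT+GTA+5-Aza, beside 0.670 for DUSP8.

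The other genes of the pathway were taken from hand-written lists that were chosen with earlier results known. In CPT+GTA+5-Aza against CPT, 10 of 13 tested immediate early genes, the first transcription targets of MAP kinase signalling, were called higher and 0 lower, beside 9.57% and 7.39% of all genes. The list's median log2 fold change was 0.70. EGR1 went from 14.02 ± 1.13 to 30.1 ± 1.33 CPM (SD, n = 3), and JUN, JUNB, IER5 and IER2 rose by log2 fold changes of 0.65, 0.99, 0.70 and 0.39. NR4A1, a nuclear receptor, had 28, 13 and 2 counts in CPT and 72, 58 and 68 in CPT+GTA+5-Aza. Of 14 genes that report ERK output, 7 were higher and 1 lower, beside the same shares of all genes, with a median of 0.24. IER3 rose by 1.30, the ETS factors ETV4 and ETV5 by 0.74 and 0.39, the feedback inhibitor SPRY4 by 0.34 and the ephrin receptor EPHA2 by 0.26, whereas EPHA4 fell by 0.58 on the log2 scale. DUSP6, often read as a measure of ERK output, is given above with its own values.

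In the lists that follow, the counts are to be read against the 9.57% of all genes that were higher and the 7.39% that were lower in this comparison. Upstream, 5 of 17 genes of RAS, RAF and their adaptors were higher and 3 lower. RRAS, MRAS, KSR1 (a scaffold of the ERK cascade) and SHC1 were higher by log2 fold changes of 1.01, 0.93, 1.30 and 0.42, and SOS2 and RASA1 were lower, at -0.38 and -0.33. Of 12 MAP kinases, MAPK3 (ERK1) and MAPK12 (a p38 kinase) were higher, at 0.53 and 0.33, and MAPK6 was lower, at -0.28. Among 6 MAP kinase kinases only MAP2K4, which acts on JNK and p38, was called, at -0.34. Of 14 kinases upstream of JNK and p38, MAP3K1 was higher at 0.45, and TAOK1 and MAP3K3 were lower at -0.37 and -0.28.

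Among other phosphatases of the pathway, 1 of 10 tested genes in the first list below and 1 of 6 in the second were called in each direction. The shares of all genes were 9.57% higher and 7.39% lower, and with lists this small nothing is read from these counts. Of 10 tested genes among the remaining DUSP and STYX genes, DUSP9, which prefers ERK like DUSP6, was higher (0.40 ± 0.14 SE; edgeR, Benjamini-Hochberg adjusted p = 0.0492) and the catalytically inactive STYX was lower (-0.29 ± 0.09 SE; adjusted p = 0.0299). DUSP9 was at 14.1 ± 1.48 CPM in CPT and 18.6 ± 1.37 CPM in CPT+GTA+5-Aza, but at 17.6 ± 2.99 CPM in Con (SD, n = 3). Of 6 tested tyrosine and serine/threonine phosphatases, PTPN7, a tyrosine phosphatase of ERK and p38, had 0, 1 and 4 counts in CPT and 21, 16 and 10 in CPT+GTA+5-Aza, and PPM1B was lower, at -0.29. PTPN7 passed the filter on low counts only through the primed groups, so its call is a description and supports nothing further.

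**Figure D5:**
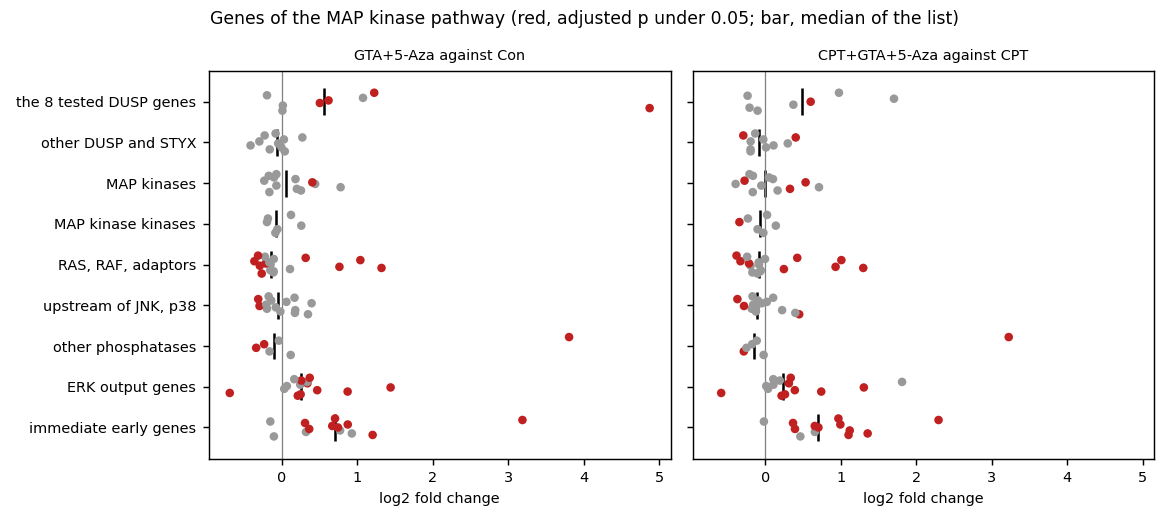
Log2 fold change (x axis) of each tested gene of 9 lists (y axis) in GTA+5-Aza against Con (left) and CPT+GTA+5-Aza against CPT (right, without DUSP10, which has 0 counts in CPT); red marks an adjusted p under 0.05 and the bar is the median of the list. On the right, 10 of 13 immediate early genes are higher.

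The total count per library ran from 16162490 to 21224665, and the lowest was in CPT+GTA+5-Aza. The cell line's markers were mixed: KRT8, KRT18 and the mesenchymal filament gene VIM were abundant, whereas EPCAM and CDH1 reached at most 0.0528 and 0.245 CPM. Of the other epithelial markers, KRT19 ranged from 28.4 to 41.4 CPM and KRT7 from 0.210 to 2.77 CPM. Of the other mesenchymal markers, ZEB1 ranged from 46.2 to 65.9 CPM and FN1 from 2.31 to 3.71 CPM, while CDH2 reached at most 0.250 CPM. Of 8 acinar markers 6, and all 4 endocrine ones, had 0 counts in every library. The summed fibroblast list ran from 779.9 to 847.7 CPM in CPT, 879.4 to 932.1 in Con, 988.4 to 1069 in GTA+5-Aza and 916.4 to 942.3 in CPT+GTA+5-Aza, with 1 of its 6 markers at 0 in all libraries. This sum was carried by COL1A2 (688.9 to 942.5 CPM), while COL1A1 ranged from 0.0477 to 2.204 CPM. Between CPT+GTA+5-Aza and CPT, COL1A1 (log2 fold change 3.46), COL1A2 (0.19), KRT18 (0.18) and KRT19 (0.28) were called higher in the primed cells and VIM (-0.18) lower by the same edgeR test, and the part of these markers in the results was not tested. COL1A1 passed the filter on low counts only through the primed groups, so its call is a description. In bulk RNA a larger share of expressing cells and more RNA per cell cannot be told apart, so this holds for DUSP10 and all other genes above.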

How the data were processed

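In the authors' pipeline, reads were trimmed (Trim Galore), mapped to GRCh38 (HISAT2 2.2.1) and assigned to genes (HTSeq). What was deposited is whole-number counts per gene, not normalized. The annotation release and strand setting are not given in the sources used here. Groups and replicate numbers came from the labels. Symbols and coordinates came from GENCODE v44 (52181 identifiers matched, with 99.047% of all counts), and promoter sequences from RefSeq (GRCh38.p14). No window was available for DUSP5, and starts on chromosome 8, which holds DUSP4, were left out of the promoter search.

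Counts were tested in R 4.3.3 with edgeR 4.0.16 (filterByExpr on the 4 groups, TMM, glmQLFit and glmQLFTest in 1 fit of 12 libraries, Benjamini-Hochberg adjustment over 17123 genes). A gene was called at an adjusted p under 0.05. SEs were taken from the fold change and F statistic. The method was tested on simulated counts. DESeq2 1.42.0 was an alternative, beside glmTreat, other scalings, no filter, fits of the compared groups only, a replicate block and leaving out each library. Each pair of replicates differed by more than counting error (lowest chi-square per degree of freedom 3.988), so no pair looked like 1 library split. This value cannot tell separate cultures from repeated preparations of the same RNA.

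The genes and lists were chosen with earlier results of these data known. All 10 phosphatases were named, and of each pathway list at most 6 genes with an adjusted p under 0.05, smallest p first. Called genes beyond 6 are counted only. Of the genes most like DUSP10 in pattern, 5 were to be named and 1 is not reported here. Intervals from counts and the floor of 3 counts cover counting error only.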

Additional observations from a re-analysis of the deposited data

How the results depend on the processing

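The number of phosphatase genes called did not move by more than 1.5 times under DESeq2, other scalings, no filter on low counts or fits of the compared groups alone, in any of the 6 comparisons. Tested against a fold change of 1.5 with glmTreat, 1 gene (DUSP10) was called in each of GTA+5-Aza against Con, CPT+GTA+5-Aza against CPT and CPT+GTA+5-Aza against Con, in place of 4, 2 and 3. Leaving out 1 library at a time gave 1 to 3 genes in the first, 1 to 2 in the second and 1 to 2 in the third, and 0 in the CPT comparisons and the interaction. Over all genes in GTA+5-Aza against Con, glmTreat called 203 higher and 13 lower in place of 1703 and 1290, and leaving out GTA+5-Aza replicate 3 gave 1100 and 807. Of 660 single-gene values under alternatives, 614 kept a call in the same direction or, if uncalled, moved by no more than the SE. A kept call could move further, as for DUSP10 in GTA+5-Aza against Con (log2 fold change 4.345 to 7.46, main fit 4.87). Of the rest, 29 lost the call, 3 gained it and 14 moved by more than the SE without a call. With a call in either fit, 0 changed sign, and sign changes of uncalled values were not counted as reversals. Most of the 660 values were of genes uncalled in the main fit, where no call could be lost. In the priming comparisons, each call of DUSP10 was kept in 13 of 13 alternatives. Those of DUSP2, DUSP5 and DUSP8 were kept in 6 to 11 of 13.

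DUSP2 was not called in GTA+5-Aza against Con without Con replicate 1 or 3 or any GTA+5-Aza replicate, DUSP5 without Con replicate 3 or GTA+5-Aza replicate 2 or 3, and DUSP8 without any Con replicate or GTA+5-Aza replicate 1 or 3. The cause was not tested. In the fit of the compared groups alone, DUSP6 was called in CPT+GTA+5-Aza against Con (edgeR, Benjamini-Hochberg adjusted p = 0.0243, against 0.0702).

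Same-numbered replicates did not deviate together as a whole (r from -0.377 to 0.42, 3 of 18 pairs over 0.1). All 3 pairs were of replicate 2 (Con with CPT 0.42, Con with CPT+GTA+5-Aza 0.163, CPT with CPT+GTA+5-Aza 0.183), and replicate 2 of GTA+5-Aza ran against the other replicates 2 (-0.276, -0.377 and -0.164), so the numbers were not taken to pair the samples. Replicate 3 of GTA+5-Aza instead ran with the replicates 2 of Con (0.291), CPT (0.366) and CPT+GTA+5-Aza (0.181). The replicate block follows the numbers, so it does not cover this, and its part in the results was not tested. With the replicate block, 4, 2 and 3 genes were called in the priming comparisons and 0 in the others, as without it.

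With 0 to 44 counts per library, DUSP4, DUSP6 and DUSP10 have wide intervals. For CPT+GTA+5-Aza over GTA+5-Aza, the intervals of the count ratio that cover counting error only did not include 1 (DUSP10 1.35 to 2.53, DUSP6 1.22 to 3.85, DUSP4 0.0556 to 0.676). DUSP10 and DUSP6 were not called once the spread between libraries was included, and DUSP4 had no test.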
